A study of Mus musculus with 12 samples.

Results

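The genes of the proteasome were followed in mouse bone marrow cells that carried a leukemia-associated form of SETBP1, of NRAS, of both or of neither. Members were all genes of the deposited count table whose symbol starts with Psm, followed by a letter from a to g and a digit, and 50 of its 19910 genes met this rule. Of these, 31 encode constitutive subunits of the core and of the regulatory cap, and 5 encode the interferon-inducible parts of the immunoproteasome (Psmb8, Psmb9, Psmb10, Psme1 and Psme2). Another 7 encode assembly chaperones, 3 encode other activators or inhibitors of the core (Psme3, Psme4 and Psmf1), and 2 encode tissue-restricted subunits (Psma8 of the testis and Psmb11 of the thymus). The last 2 match by name only: Psmc3ip encodes a partner of meiotic recombination proteins, and Psme2b is a close copy of Psme2.

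Bulk RNA was sequenced from 12 libraries in 4 groups of 3. Bone marrow from female C57BL/6J mice aged 6 to 10 weeks was transduced with retrovirus made in 293T17 cells, a human embryonic kidney line used for packaging. The cells are titled leukemia cells in the submitters' labels. Every group received a pair of vectors, so the controls carried retroviral inserts too. The empty group had EMPTY + EMPTY. The SETBP1 group had SETBP1 (D868N) + EMPTY, the NRAS group had EMPTY + NRAS (G12D), and the SETBP1+NRAS group had SETBP1 (D868N) + NRAS (G12D). Both inserts are expressed from the vector and not from the mouse locus. No label states what a replicate is (another mouse, another transduction or another dish), so the p-values measure only the spread between these libraries, which may be technical.

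The proteasome is a barrel of alpha and beta rings, the 20S core, capped by the 19S particle, which binds ubiquitin-tagged proteins, unfolds them with a ring of ATPases and feeds them into the core. The beta subunits that cut peptides are encoded by Psmb5, Psmb6 and Psmb7. Interferon gamma induces Psmb8, Psmb9 and Psmb10, which replace Psmb5, Psmb6 and Psmb7 in newly made cores, and it also induces Psme1 and Psme2, which form the PA28 activator. The resulting immunoproteasome yields many of the peptides shown by class I major histocompatibility molecules and is common in blood cells. When proteasome activity falls short, the transcription factor encoded by Nfe2l1 raises the constitutive subunits together through antioxidant response elements.

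Promoter windows of 300 bases, from 250 before to 50 after the RefSeq transcription start (GRCm38.p6), were found for 42 of the 50 members. They were searched on both strands for the letters of motifs tied to these forms of control. The stretches of 30 bases below, 5′ to 3′ on the strand of the gene, show where an inducible gene or the constitutive partner it replaces held one, with the motif in capitals. Matches to the NF-kB motif, the most common of those searched, are counted but not printed.
Psmb8, gamma-activated site: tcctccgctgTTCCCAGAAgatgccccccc
Psme1, interferon-stimulated response element on the reverse strand: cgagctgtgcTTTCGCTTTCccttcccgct
Psmb9, CCAAT box on the reverse strand: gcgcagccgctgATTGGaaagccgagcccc
Psmb5, antioxidant response element: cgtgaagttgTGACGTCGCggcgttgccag
Psmb6, antioxidant response element: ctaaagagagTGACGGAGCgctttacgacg

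The Psmb8 stretch lies at chr17:34198088-34198117 on the plus strand. The Psmb9 stretch lies at chr17:34187321-34187350 on the minus strand, and the Psme1 stretch at chr14:55578493-55578522 on the plus strand. All 3 fall inside an exon of a longer annotated transcript of the same gene (GENCODE vM21, GRCm38). The Psmb5 stretch, at chr14:54618023-54618052 on the minus strand, lies just upstream of the annotated gene, as does the Psmb6 stretch, at chr11:70525338-70525367 on the plus strand, apart from its last base.

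The share of all promoters with each motif gives the background, and only for the last motif does it differ much from the share among promoters of the genes tested. The gamma-activated site (TTCNNNGAA) was in 8.3% of the 32851 windows of the RefSeq table, in 1 of the 5 inducible genes (Psmb8) and in 1 of the 25 constitutive genes with a window (Psmd2). The interferon-stimulated response element (GAAA, 2 bases of any kind, GAAA) was in 3.44% of windows, in 1 of the 5 inducible genes (Psme1) and in 2 of the 25 constitutive genes (Psmb3 and Psmd4). The antioxidant response element (TGACNNNGC) was in 12.39% of windows, in 4 of the 25 constitutive genes (Psmb5, Psmb6, Psmc6 and Psmd12) and in 0 of the 5 inducible genes. CCAAT, the site of factor NF-Y, was in 37.41% of windows, in 10 of the 25 constitutive genes and in 1 of the 5 inducible genes (Psmb9). A core NF-kB motif (GGG, 5 bases of any kind, CC) was in 50.79% of windows (67.02% of those of genes tested), in 16 of the 25 constitutive genes and in 3 of the 5 inducible genes. A match is a run of letters and not a shown binding site.

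Library totals ran from 7085894 to 8864919 counts. The Nras gene took 626 to 741 counts in libraries labelled without the NRAS insert and 10517 to 13502 in those with it, and Setbp1 took 0 counts without the SETBP1 insert and 5 to 17 with it. Replicate 3 of the SETBP1 group stood apart: its log2 levels correlated with those of its group mates at 0.946 and 0.953, against 0.984 to 0.991 for all other pairs within a group. It also held the fewest detected genes, 11835. All 8 markers of blood cells passed the filter on low counts. Those of T and natural killer cells summed to 4.34 to 10.7 normalised CPM (counts per 1000000 counts in tested genes, scaled between libraries) with Cd3e, Cd8a, Cd8b1 and Ncr1 at 0.

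Of the 50 members, 49 passed the filter on low counts and were tested among 10993 genes. The thymic subunit gene Psmb11 was not tested, with 1 count in 1 library of 12. The members together took 1.11% to 1.18% of all counts in the empty group, 1.23% to 1.35% in the SETBP1 group, 1.23% to 1.31% in the NRAS group and 1.27% to 1.28% in the SETBP1+NRAS group. The 5 inducible genes took 0.138% to 0.154%, 0.166% to 0.217%, 0.109% to 0.129% and 0.107% to 0.112% in the same order. The share of the whole family was above the empty group in each of the other groups, while the inducible share was above it with SETBP1 alone and below it in both groups with NRAS. In bulk RNA, fewer cells of a type and less RNA per cell cannot be told apart.

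Per kilobase of transcript, averaged over all libraries, the core subunit genes Psma7, Psma6 and Psmb2 stood highest at 485, 425 and 407 normalised CPM per kilobase. Psmb8 was the highest inducible gene, at rank 6 of 50 with 351, followed by Psme2 at 308, Psme1 at 233, Psmb9 at 111 and Psmb10 at 99.5. In the empty group Psmb8 stood at 343 ± 29.2 normalised CPM per kilobase (SD, n = 3) and its constitutive partner Psmb5 at 144 ± 5.51. The order was the other way for Psmb9, at 123 ± 7.58 against 315 ± 26.2 for Psmb6, and for Psmb10, at 86.4 ± 5.06 against 122 ± 2.89 for Psmb7. Chaperone genes lay below the subunits, from 19 for Psmd9 to 89.2 for Psmg1, and Psma8 was near the floor at 3.67. Psmc3ip stood at 20.5 and Psme2b at 3.58.

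Between the SETBP1 and empty groups, 4 of the 5 inducible genes rose: Psmb8, Psmb9, Psmb10 and Psme2 (edgeR quasi-likelihood test, adjusted p under 0.05). Over all genes tested, 8.31% were higher and 6.55% were lower in this comparison. Psmb8, the inducible counterpart of Psmb5, read 530.0, 613.2 and 531.6 normalised CPM in the empty libraries and 662.8, 757.6 and 928.3 in the SETBP1 libraries. These values do not overlap, and replicate 3 is the highest. The log2 fold change was 0.49 (SE 0.11, adjusted p = 0.0141).

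Psmb10, the counterpart of Psmb7, showed the largest change of any member in this comparison. It read 107.9, 120.6 and 111.2 normalised CPM in the empty libraries and 158.5, 190.8 and 240.9 in the SETBP1 libraries. Every SETBP1 library was above every empty one, with a log2 fold change of 0.80 (SE 0.13, adjusted p = 0.0029). Psmb9, the counterpart of Psmb6, went from 167.8, 175.0 and 154.8 to 186.4, 215.7 and 241.4, again without overlap, by 0.37 on the log2 scale (SE 0.10, adjusted p = 0.0292). Psme2, the beta part of PA28, rose by 0.46 (SE 0.13, adjusted p = 0.0308), and its partner Psme1 was 0.32 higher without passing the test (SE 0.11, adjusted p = 0.0618). The Psme1 values overlapped, at 243.9, 275.8 and 244.5 in the empty libraries against 262.9, 320.9 and 371.7.

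**Figure D1:**
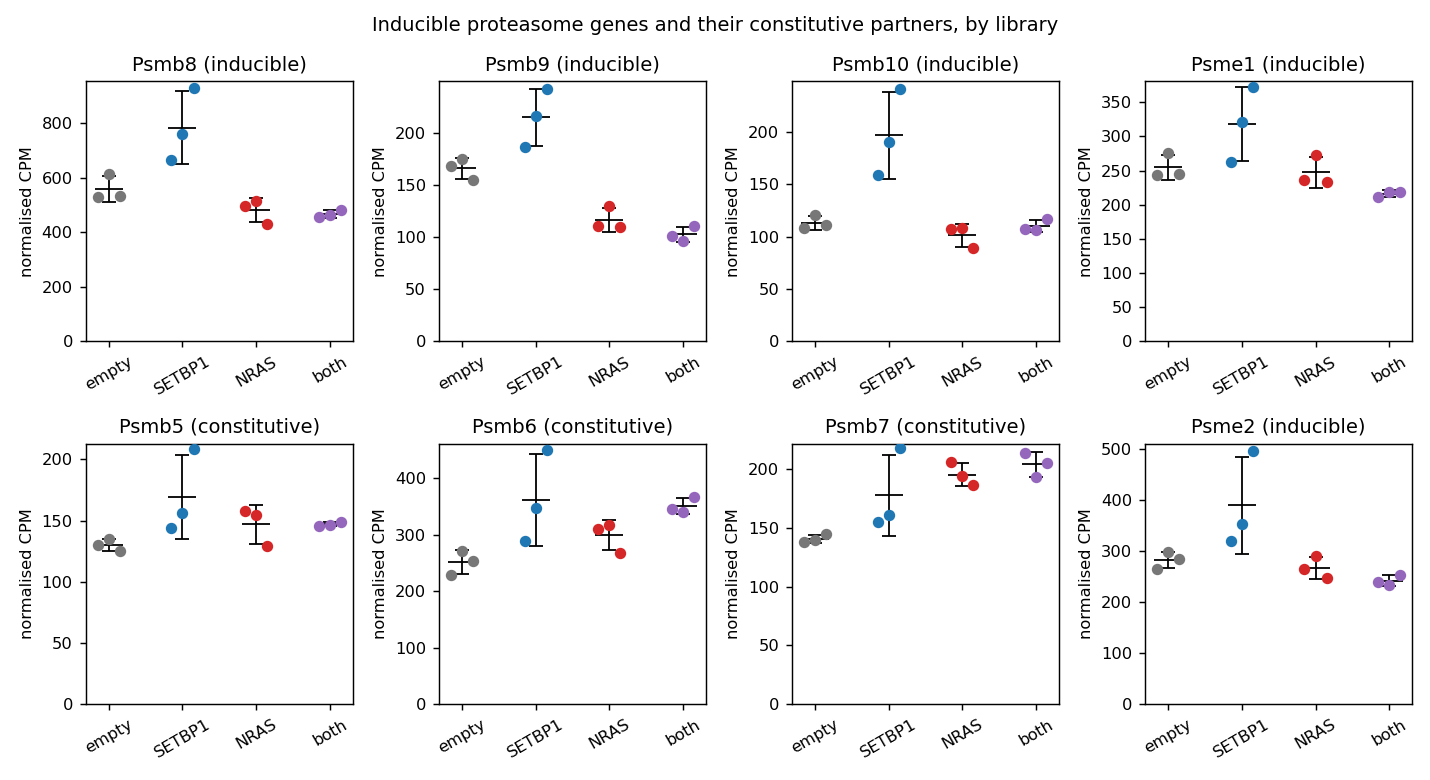
Normalised CPM (linear axes from 0) of the 5 inducible genes and of Psmb5, Psmb6 and Psmb7 in each library of the empty, SETBP1, NRAS and SETBP1+NRAS ("both") groups; points are libraries, in replicate order from left to right, and bars give the mean ± SD of 3. All 5 inducible genes are highest in the SETBP1 group, where Psmb8 reaches 928.3, while Psmb7 lies above the empty group in all the others.

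The calls in this comparison depended on the libraries used. Without replicate 3 of the SETBP1 group the same 4 inducible genes remained higher, with a smaller median log2 fold change (0.28 against 0.46) and 0.62 for Psmb10. Without replicate 1 or replicate 3 of the empty group, or in a fit of these 6 libraries alone, Psmb10 was the only inducible gene that passed. Over all genes 4.44%, 3.5% and 1.03% passed in these fits, against 14.9% with all 12 libraries. The inducible medians were 0.43, 0.46 and 0.47 there. Summed markers of dendritic cells, which express immunoproteasome genes strongly, moved in parallel. They ran from 343 to 497 CPM in the empty libraries and were 682, 732 and 1143 in the SETBP1 libraries, replicate 3 the highest. Of the 10 listed genes 5 were tested, and none of the 10 was at 0 in all libraries. Of the 5 tested, 3 were higher and 0 lower, and 1 log2 fold change was below 0 without passing. Summed markers of monocytes and macrophages ran from 1185 to 1397 in the empty libraries and from 1490 to 2163 in the SETBP1 libraries. Replicate 3 was again the highest, and all 10 were tested. Of the neutrophil markers 8 of 10 were lower and 0 higher, and of the mast cell and basophil markers 5 of 8 were lower. Their part in the result was not tested.

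The constitutive subunits moved the same way between these groups, with 14 of 31 higher and 1 lower against the 8.31% and 6.55% of all genes. Their median log2 fold change was 0.24, against -0.01 for all genes tested, and 28 of 31 were above 0. In 23 of the 31 every SETBP1 library lay above every empty library, against 16.7% of all genes. The alpha ring, which gates the core, accounted for 6 of these calls with 6 of its 7 genes higher, among them Psma5 (0.34, SE 0.07, adjusted p = 0.0114). The beta ring had 3 of 7 higher, and 2 of the 3 were catalytic: Psmb6 rose by 0.53 (SE 0.13, adjusted p = 0.0191) and Psmb5 by 0.39 (SE 0.12, adjusted p = 0.0464). Psmb7 was 0.34 higher without passing the test (adjusted p = 0.0537). In the 19S cap 1 of 6 ATPase genes rose, Psmc5 by 0.38 (SE 0.08, adjusted p = 0.0107).

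Among the 11 other cap genes 4 rose and 1 fell. Psmd8, a lid subunit, rose by 0.40 (SE 0.10, adjusted p = 0.0204). Psmd2, the large scaffold that receives ubiquitin shuttles, was the one that fell, from 547.1, 544.4 and 530.5 normalised CPM to 495.1, 447.4 and 464.5. Its groups did not overlap and the log2 fold change was -0.21 (SE 0.06, adjusted p = 0.0465).

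Assembly chaperones made up 3 more calls of 7, all 3 among the 4 Psmg genes, which act on the core. Psmg4 rose by 0.61 (SE 0.17, adjusted p = 0.0332), Psmg3 by 0.51 (SE 0.11, adjusted p = 0.0130) and Psmg2 by 0.38 (SE 0.09, adjusted p = 0.0141). None of Psme3, Psme4 and Psmf1 passed, nor did Psma8, Psmc3ip or Psme2b. Psme4, which encodes the PA200 activator, had replicate 3 of the SETBP1 group far below its mates. It read 57.8, 48.2 and 23.7 normalised CPM, against 56.1, 63.5 and 56.5 in the empty libraries. Its log2 fold change was -0.44 with that replicate and -0.15 without it. At 6491 bases its transcript is the longest of the members.

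Replicate 3 of the SETBP1 group bore on the size of these values. It lay above the mean of its 2 group mates for 27 of the 31 constitutive genes, with a median difference of 0.14 on the log2 scale over all 31. For the inducible genes the median difference was 0.39. Its shift against its 2 group mates fell with transcript length, with a Spearman rho of -0.464 across 10993 genes, which share that one library. Across the 49 tested members alone rho was weaker, at -0.249. The median shift was 0.25 in the shortest 25% of genes (up to 1914 bases) and -0.50 in the longest 25%, and 23 of the 31 constitutive genes are among the shortest. So are Psme2, Psme1, Psmb10, Psmb9 and Psmb8, all the inducible genes, at 962, 1112, 1311, 1352 and 1628 bases. Without this library 12 constitutive genes passed, 11 higher and 1 lower, all among the 15 called with it. Their median log2 fold change was then 0.17 over all 31. Without replicate 1 or replicate 3 of the empty group, 0 of 31 passed. Over all genes 4.44% and 3.5% passed in these fits, against 14.9% with all libraries. The constitutive medians were 0.24 and 0.22 there, with 28 of 31 above 0 in each.

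**Figure D2:**
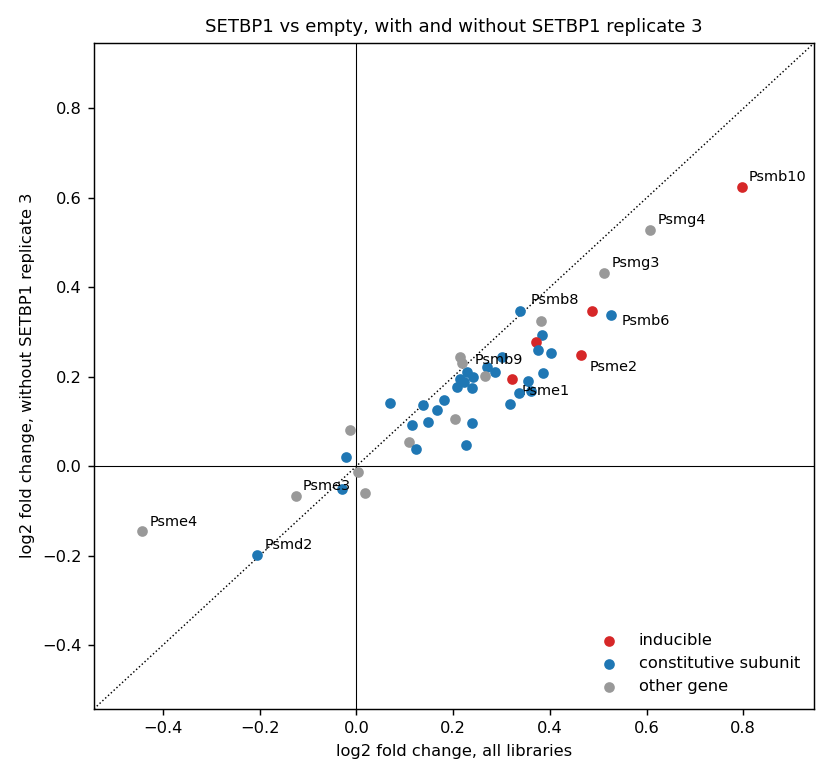
Log2 fold change between the SETBP1 and empty groups for the 49 tested members, with all libraries (horizontal axis) and without SETBP1 replicate 3 (vertical axis); the dotted line marks equal values and colours mark inducible genes, constitutive subunits and the other members. Most genes lie below the line, as Psmb10 does (0.80 with the library and 0.62 without it).

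Between the NRAS and empty groups, 23 of 31 constitutive genes rose and 0 fell, while 1 of the 5 inducible genes, Psmb9, fell and 0 rose. Over all genes tested, 17% were higher and 15.5% were lower. The constitutive median was 0.32 on the log2 scale, all 31 values were above 0, and 25 of the 31 had NRAS libraries wholly above the empty libraries, against 28.4% of all genes. The inducible count of 1 in 5 is near the share of all genes that were lower. The 5 inducible values were all below 0, with a median of -0.16, which was -0.07 without NRAS replicate 3, and Psme1 was at 0.015 without empty replicate 2. Markers of other cells differed between these groups too: 5 of 5 early granule genes (median -1.14), 8 of 8 mast cell and basophil genes (median -1.86) and 3 of 5 dendritic genes were lower, and 4 of 10 proliferation genes were higher. Summed dendritic markers ran from 303 to 345 CPM in the NRAS libraries, against 343 to 497 in the empty libraries. Of the 10 neutrophil markers 5 were lower and 2 higher. Monocyte and macrophage markers had 4 of 10 lower and 2 higher, and megakaryocyte markers 3 of 6 lower. Their part in the result was not tested.

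The largest increases were in the 19S cap, where 10 of 11 non-ATPase and 4 of 6 ATPase genes rose. Psmd12, a lid subunit, read 216.3, 224.8 and 201.8 normalised CPM in the empty libraries and 315.3, 330.3 and 340.5 in the NRAS libraries. The groups were far apart relative to their spread, at a log2 fold change of 0.62 (SE 0.12, adjusted p = 0.00104). Psmd8 went from 269.3, 287.5 and 256.5 to 410.9, 395.5 and 396.2, by 0.56 (SE 0.10, adjusted p = 0.000771). Psmc6, one of the unfolding ATPases, went from 180.0, 181.1 and 184.9 to 255.1, 254.5 and 276.0, by 0.53 (SE 0.06, adjusted p = 2.96e-05). Psmd14, the deubiquitinase of the lid, and Psmd3 each rose by 0.44 (adjusted p = 9.76e-05 and 9.84e-05). Psmd4, a ubiquitin receptor of the cap, was 0.14 higher and did not pass (adjusted p = 0.229).

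In the core, 6 of 7 alpha and 3 of 7 beta genes rose. Of the catalytic genes Psmb7 rose by 0.47 (SE 0.11, adjusted p = 0.00444), from 138.1, 140.3 and 144.7 to 206.1, 194.6 and 186.5 normalised CPM. Psmb5 and Psmb6 were 0.18 and 0.25 higher without passing (adjusted p = 0.281 and 0.16). Assembly chaperones had 2 of 7 higher, Psmg1 (0.28) and Psmd5 (0.23). Both Psme3, the nuclear PA28 gamma (0.25, adjusted p = 0.0139), and Psmf1, an inhibitor of the core (0.28, adjusted p = 0.047), rose.

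Psmb9 was the inducible gene that fell. It read 167.8, 175.0 and 154.8 normalised CPM in the empty libraries and 110.1, 129.8 and 109.8 in the NRAS libraries, with no overlap and a log2 fold change of -0.51 (SE 0.10, adjusted p = 0.00188). Psmb8 was at 497.0, 513.5 and 430.2 in the NRAS libraries, all below the lowest empty library, at -0.22 (SE 0.11, adjusted p = 0.152). Groups were apart in this direction for these 2 of the 5 inducible genes and for 27.9% of all genes. Psmb8 passed in the fit without SETBP1 replicate 3 at -0.22 (adjusted p = 0.0214), where 47% of all genes passed against 32.5% with all libraries. Psmb10, Psme1 and Psme2 differed by -0.16, -0.04 and -0.08 (adjusted p = 0.385, 0.806 and 0.673).

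**Figure D3:**
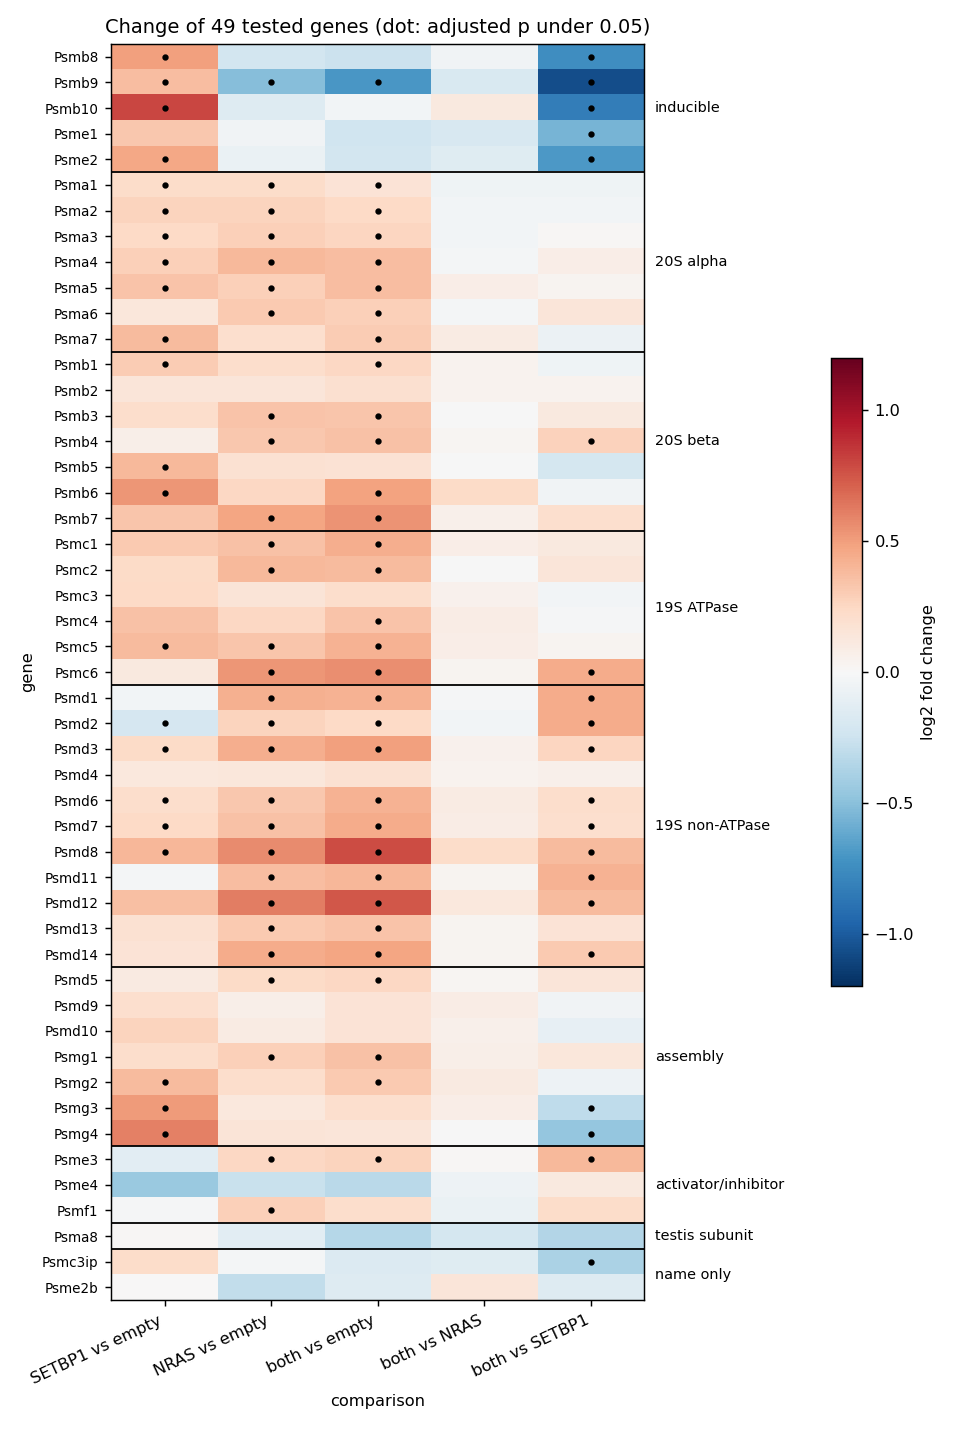
Log2 fold change (colour, blue lower and red higher) of the 49 tested members in 5 comparisons, ordered by role; "both" is the SETBP1+NRAS group and a dot marks an adjusted p under 0.05 over all genes. Of the 31 constitutive rows 28, 31 and 31 are above 0 in the 3 columns set against the empty group, and the 5 inducible rows change from red in the SETBP1 column to blue in the SETBP1+NRAS against SETBP1 column.

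With both inserts 27 of the 31 constitutive genes rose against the empty group and 0 fell, where 20.8% of all genes were higher and 19.8% lower. All 31 had SETBP1+NRAS libraries wholly above the empty ones, against 30.7% of all genes, and the median log2 fold change was 0.37. Psmd8 was the most changed, at 468.8, 456.6 and 473.2 normalised CPM against 269.3, 287.5 and 256.5, a log2 fold change of 0.78 (SE 0.10, adjusted p = 3.42e-05). Psmd12 followed with 0.74, Psmc6 with 0.56, Psmd3 with 0.49 and Psmd14 with 0.48. Between these groups 5 of 5 early granule markers (median -1.71), 7 of 8 mast cell and basophil markers and 8 of 10 neutrophil markers were lower. Summed dendritic markers ran from 366 to 401 CPM with both inserts, within the range of 343 to 497 in the empty libraries. Of the 10 proliferation genes 5 were higher and 1 lower. Monocyte and macrophage markers had 4 of 10 higher and 2 lower, dendritic markers 3 of 5 lower, and megakaryocyte markers 4 of 6 lower and 1 higher. Their part in the result was not tested. The alpha ring had all 7 genes higher, the beta ring 5 of 7, the ATPases 5 of 6 and the other cap genes 10 of 11. Among the catalytic genes Psmb6 (0.48, adjusted p = 0.00901) and Psmb7 (0.54, adjusted p = 0.00146) passed and Psmb5 did not (0.18, adjusted p = 0.262).

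Of the inducible genes Psmb9 alone fell, by 0.69 on the log2 scale (SE 0.10, adjusted p = 0.000126), to 100.7, 96.5 and 110.3 normalised CPM. Psmb8, Psme1 and Psme2 had SETBP1+NRAS libraries wholly below the empty ones without passing, at -0.26, -0.24 and -0.22 (adjusted p = 0.0785, 0.104 and 0.19). With Psmb9 this makes 4 of 5 with groups apart in this direction, against 30.5% of all genes. All 3 passed without SETBP1 replicate 3, which brought the count of lower inducible genes to 4. In that fit 53.7% of all genes passed, against 40.6% with all libraries, and the inducible median was -0.235 against -0.236. Psmb10 differed by -0.04 (adjusted p = 0.846), with 107.6, 106.7 and 116.8 normalised CPM.

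Comparing SETBP1+NRAS with NRAS alone sets groups with and without the SETBP1 insert against each other where both carry NRAS. No member passed edgeR's test here, where 1.91% of all genes did. Only 1 of the 49 had an unadjusted p under 0.05, against 1283 of all 10993 genes. Among the 31 constitutive genes DESeq2 and limma-voom called 0, and limma-voom with sample quality weights called 1. None of these tools called any of the 5 inducible genes. Over all genes they called 3.45%, 1.67% and 9.44%. The median log2 fold changes were 0.04 for the constitutive and -0.14 for the inducible genes. Psmb6 (0.23, SE 0.13, adjusted p = 0.579) and Psmd8 (0.22, SE 0.10, adjusted p = 0.423) were the highest. The Psmb9 difference was -0.18 (SE 0.10, adjusted p = 0.588). Here 8 of 10 neutrophil, 4 of 5 early granule and 3 of 8 mast cell and basophil markers were lower and 0 higher. Monocyte and macrophage markers had 4 of 10 higher and 0 lower, and megakaryocyte markers 1 of 6 lower. Of the dendritic and proliferation markers 0 passed. Summed dendritic markers ran from 303 to 345 CPM with NRAS alone and from 366 to 401 with both inserts. The part of these cells in the result was not tested.

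Comparing SETBP1+NRAS with SETBP1 alone sets groups with and without the NRAS insert against each other where both carry SETBP1. Here all 5 inducible genes fell, in a comparison where 21.5% of all genes were lower and 20.9% higher. Psmb9 fell the most, from 186.4, 215.7 and 241.4 normalised CPM to 100.7, 96.5 and 110.3, by 1.07 on the log2 scale (SE 0.10, adjusted p = 3.41e-06). Psmb10 fell by 0.83 (SE 0.13, adjusted p = 0.000185), Psmb8 by 0.75 (SE 0.11, adjusted p = 0.000129), Psme2 by 0.69 (SE 0.13, adjusted p = 0.000894) and Psme1 by 0.56 (SE 0.11, adjusted p = 0.00117). No SETBP1+NRAS library reached the lowest SETBP1 library for any of the 5, while 24% of all genes had groups apart in this direction. This contrast shares its SETBP1 libraries with the rise described above, so the 2 are not separate evidence. The 5 calls held in every fit that left out 1 library, and without SETBP1 replicate 3 the median was -0.60 against -0.75. Summed dendritic markers were lower here too. They were 682, 732 and 1143 CPM with SETBP1, replicate 3 the highest, and 366 to 401 with both inserts. Of the tested dendritic genes 4 of 5 were lower and 0 higher. Summed monocyte and macrophage markers ran from 1490 to 2163 CPM with SETBP1 and from 1809 to 1908 with both inserts, with 3 of 10 genes higher and 5 lower. Of the early granule markers 5 of 5 were lower, and of the mast cell and basophil markers 5 of 8. Neutrophil markers had 6 of 10 lower and 1 higher, megakaryocyte markers 4 of 6 lower, and proliferation genes 4 of 10 higher. Their part in the result was not tested.

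In the same comparison 11 of 31 constitutive genes rose and 0 fell, and 9 of the 11 were non-ATPase cap genes. Psmd2, which had been lower with SETBP1, rose from 495.1, 447.4 and 464.5 normalised CPM to 636.9, 640.0 and 636.1, by 0.44 on the log2 scale (SE 0.06, adjusted p = 9.99e-05). Psmc6 (adjusted p = 9.61e-05) and Psmd1, the other large scaffold of the base (adjusted p = 6.16e-05), rose by 0.44 as well, and Psmd11 by 0.42. No alpha gene passed, with a median of 0.02 over the 7. Of the remaining members Psme3 rose by 0.39 (adjusted p = 0.000615), while Psmg4 (-0.46, adjusted p = 0.0452), Psmg3 (-0.31, adjusted p = 0.0436) and Psmc3ip (-0.38, adjusted p = 0.0342) fell.

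The NRAS insert can be read in 2 comparisons that share no library, NRAS against empty and SETBP1+NRAS against SETBP1. All 11 constitutive genes that rose in the second also rose in the first (11 of 23 and 11 of 11). Over all genes 2720 of the 4661 called in the second were also called in the first. The first value was the larger for 28 of the 31, and for 5609 of all 10993 genes. For the inducible genes the second value was the lower in 5 of 5. The difference between the 2 comparisons was tested as an interaction, and no member passed in edgeR, where 5 of 10993 genes (0.0455%) did. The interaction medians were -0.56 for the inducible and -0.22 for the constitutive genes, and -0.39 and -0.11 without SETBP1 replicate 3. All 5 inducible genes and 8 of the 31 constitutive genes had an unadjusted p under 0.05, as did 1420 of all 10993. DESeq2 called 1 inducible gene, Psmb9, limma-voom 0 and limma-voom with sample quality weights all 5. For the constitutive genes these tools called 0, 0 and 2, and over all genes 0.846%, 0.0273% and 3.19%.

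**Figure D4:**
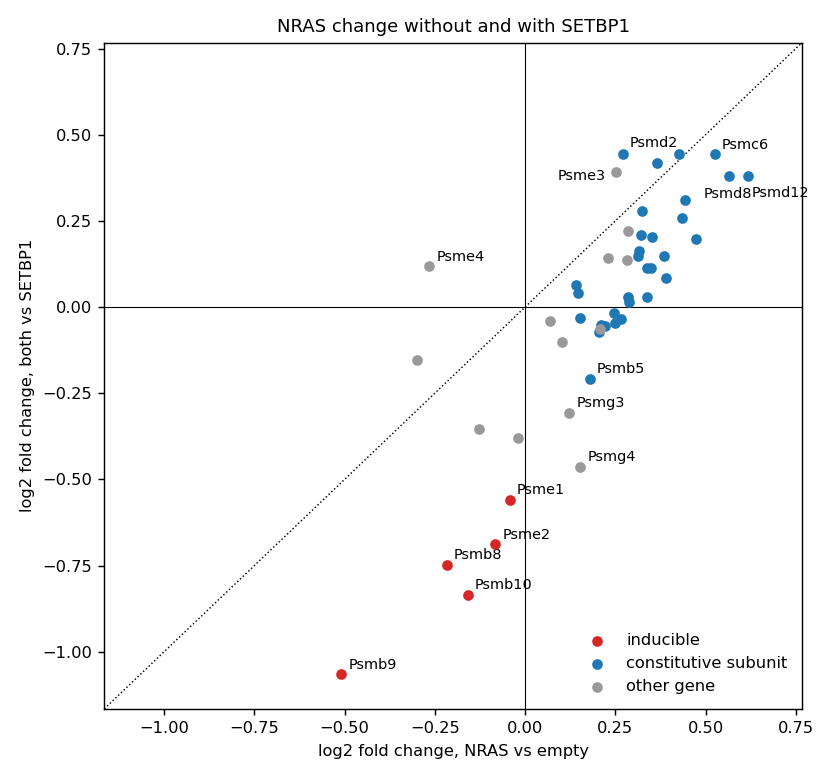
Log2 fold change with the NRAS insert for the 49 tested members, in NRAS against empty (horizontal axis) and in SETBP1+NRAS ("both") against SETBP1 (vertical axis); the dotted line marks equal values. The 5 inducible genes sit at the lower left, down to -0.51 and -1.07 for Psmb9, and 28 of the 31 constitutive subunits lie below the line.

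Each inducible catalytic subunit was also set against the constitutive one it replaces, as a ratio of their counts within a library, which needs no scaling between libraries. Psmb8 to Psmb5 stood at 4.29 ± 0.239 in the empty group (SD, n = 3) and 4.63 ± 0.205 in the SETBP1 group. It stood at 3.27 ± 0.107 in the NRAS group and 3.18 ± 0.0666 in the SETBP1+NRAS group. Every library with the NRAS insert was below every library without it.

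Psmb9 to Psmb6 fell furthest, with 0.731, 0.645 and 0.609 in the empty libraries and 0.645, 0.621 and 0.536 in the SETBP1 libraries. It was 0.354, 0.408 and 0.409 in the NRAS libraries and 0.292, 0.284 and 0.300 in the SETBP1+NRAS libraries. Psmb10 to Psmb7 was 0.803 ± 0.0493 in the empty group and 1.10 ± 0.0825 in the SETBP1 group, against 0.518 ± 0.040 in the NRAS group and 0.541 ± 0.035 in the SETBP1+NRAS group. Every SETBP1 library was above every empty library for this pair, and every library with NRAS was below all the others.

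The NRAS effect, averaged over libraries without and with SETBP1, was -0.47 on the log2 scale for Psmb8 to Psmb5, -0.90 for Psmb9 to Psmb6 and -0.83 for Psmb10 to Psmb7. Each had p = 0.005 in an exact 2-sided permutation test within the levels of SETBP1, the smallest that its 400 assignments allow, and an adjusted p of 0.01 over the 6 tests. The SETBP1 effect, tested the same way within the levels of NRAS, differed between the pairs of genes. It was 0.26 for Psmb10 to Psmb7 (exact permutation p = 0.03, adjusted 0.036) and -0.28 for Psmb9 to Psmb6 (exact permutation p = 0.02, adjusted 0.03). For Psmb8 to Psmb5 it was 0.03 (exact permutation p = 0.425). These averages over the levels of NRAS cover unlike differences. With SETBP1, the mean log2 ratio of Psmb10 to Psmb7 went from -0.32 to 0.14 without NRAS and from -0.95 to -0.89 with it. For Psmb9 to Psmb6 it went from -0.60 to -0.74 without NRAS and from -1.36 to -1.78 with it.

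**Figure D5:**
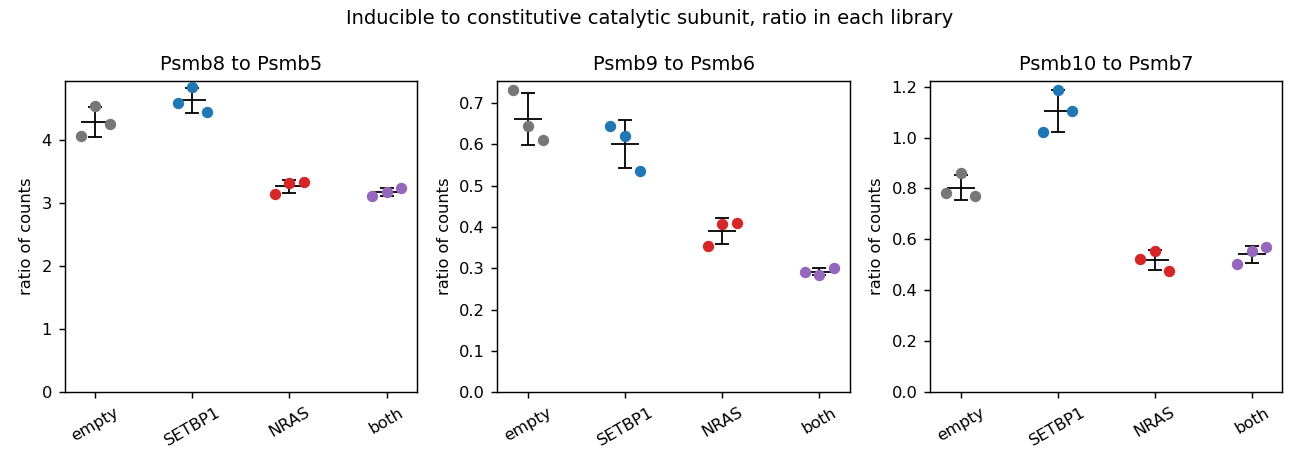
Ratio of the counts of each inducible catalytic gene to those of the constitutive gene it replaces, by library (linear axes from 0); bars give the mean ± SD of 3 and "both" is the SETBP1+NRAS group. All 3 ratios are lower in the 6 libraries with NRAS, as for Psmb8 to Psmb5, at 3.27 and 3.18 against 4.29 and 4.63.

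The 5 inducible genes followed each other across the 12 libraries, with Pearson's r between 0.822 (Psmb9 and Psmb10) and 0.963 (Psmb8 and Psme2), values that include the difference between groups and SETBP1 replicate 3. Among all tested genes the pattern most like that of Psmb9 was H2-K1, a class I heavy chain (r = 0.990), and the closest to Psme1 was Psme2 (0.961). Those closest to Psmb8, Psmb10 and Psme2 were Ndufs7 (0.983), Prdx2 (0.985) and Mcrs1 (0.982). Against the mean of the 5, Psme3 (-0.91) and Psmd2 (-0.90) ran most strongly the other way.

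Psmb8 and Psmb9 lie within the class II region of the histocompatibility locus on chromosome 17, their annotated starts 9957 bases apart with Tap1, a subunit of the peptide transporter, between them. Tap1 and Psmb9 run in opposite directions and their annotated genes share 212 bases, where reads cannot be assigned without strand, and no source used here states strand. Tap1 did not follow Psmb9 with SETBP1, at -0.07 (adjusted p = 0.516), nor pass with NRAS, at -0.20 (adjusted p = 0.062). It fell in SETBP1+NRAS against empty (-0.40, adjusted p = 0.000862) and against SETBP1 (-0.33, adjusted p = 0.00382). Psme1 and Psme2 lie 5912 bases apart on chromosome 14.

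The genes that work with the proteasome were described from 5 lists. Their counts are to be read against all genes tested, of which 8.31% were higher and 6.55% lower with SETBP1, 17% and 15.5% with NRAS, 20.8% and 19.8% with both inserts, each against empty, and 20.9% and 21.5% in SETBP1+NRAS against SETBP1. Of 4 other proteasome parts and assembly factors, 2 rose with SETBP1, 3 with NRAS and all 4 with both inserts, each against empty, and 2 rose in SETBP1+NRAS against SETBP1. Pomp, the chaperone that closes the core, rose by 0.36, 0.48, 0.62 and 0.27 in that order (adjusted p = 0.0141, 0.000503, 3.55e-05 and 0.0168). Of 16 genes of ubiquitin supply, shuttling and removal, 1, 6, 7 and 9 rose and 0 fell in the same order, the first of these near the share of all genes. Usp14, a deubiquitinase bound to the cap, rose by 0.56 with NRAS (adjusted p = 3.05e-05).

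Among 9 tested genes of the control of subunit transcription, 0 passed with SETBP1, 3 rose with NRAS, and 5 rose and 1 fell in each of the SETBP1+NRAS comparisons with empty and with SETBP1. Nfe2l1 itself rose in SETBP1+NRAS against SETBP1 (0.55, SE 0.18, adjusted p = 0.0233) and was 0.34 higher with NRAS without passing (adjusted p = 0.155). Ddi2, the protease that activates its product, rose by 0.65 with NRAS (adjusted p = 0.00274) and by 0.80 in SETBP1+NRAS against SETBP1 (adjusted p = 0.000473). Ngly1, also in this list, was the gene that fell in SETBP1+NRAS against empty (-0.62, SE 0.14, adjusted p = 0.00314).

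Class I peptide loading, which uses the products of the immunoproteasome, had 2 of 12 genes higher and 1 lower with SETBP1, 3 lower with NRAS (25% against 15.5% of all genes) and 6 lower with both inserts (50% against 19.8%). In SETBP1+NRAS against SETBP1, 8 were lower and 1 higher. The list summed to 10281, 10393.5 and 11971.5 normalised CPM in the SETBP1 libraries, replicate 3 the highest, against 9830.75 to 10201.9 in the empty libraries. H2-K1 read 1334, 1354 and 1330 normalised CPM in the empty libraries, 1508, 1582 and 1860 with SETBP1, 1008, 1177 and 1058 with NRAS, and 932, 891 and 997 with both. The 4 groups are separate, and the log2 fold changes were 0.30 with SETBP1 (adjusted p = 0.0325), -0.31 with NRAS (adjusted p = 0.0129) and -0.81 in SETBP1+NRAS against SETBP1 (adjusted p = 7.02e-06). B2m, the light chain of class I, rose by 0.45 with SETBP1 (adjusted p = 0.0245) and fell by 0.81 in SETBP1+NRAS against SETBP1 (adjusted p = 0.000114).

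Of 18 genes of interferon signalling and response, 5 rose and 2 fell with SETBP1, 0 rose and 7 fell with NRAS, 1 rose and 7 fell with both inserts, and 1 rose and 10 fell in SETBP1+NRAS against SETBP1. Irf7 (1.04, adjusted p = 0.00985) and Isg15 (0.97, adjusted p = 0.0102), both induced by interferon, rose with SETBP1, and the kinase gene Jak2 fell by 1.02 (adjusted p = 0.00147). SETBP1 replicate 3 stood apart here too. The list summed to 2219, 2319 and 3034 normalised CPM in the SETBP1 libraries, against 2171 to 2208 in the empty libraries. Values without that library are not given for the genes of these lists. Irf1, which encodes a factor that induces Psmb9 and Tap1, was at 82.6, 70.6 and 80.8 normalised CPM in the empty libraries and 44.4, 51.3 and 43.1 in the NRAS libraries. Every NRAS library was below every empty one (log2 fold change -0.75, SE 0.14, adjusted p = 0.00076). Ifngr1, a chain of the interferon gamma receptor, fell by 0.92 with NRAS (adjusted p = 6.07e-07) and by a further 0.47 in SETBP1+NRAS against NRAS (adjusted p = 0.00496), where it was the 1 gene of the list to pass.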

How the data were processed

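RNA from 12 libraries was made into cDNA with the Takara SMART-Seq ultra low input method after RNeasy micro extraction, per the labels' protocols. The deposited table holds the authors' unnormalised whole-number counts per gene, 19910 genes by 12 libraries. The submitters' processing notes name STAR, DESeq2 and mm10 without versions, and the counting tool, the annotation and the use of strand are not given in the sources used here.

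Columns were matched to libraries by their labels. Genes were filtered with filterByExpr (minimum count 10, minimum total 15), which left 10993, and scaled by TMM. edgeR 4.0.16 in R 4.3.3 fitted one quasi-likelihood model with 4 group means to all 12 libraries, and p-values were adjusted by Benjamini-Hochberg over all genes tested (threshold 0.05). SE is the absolute log2 fold change over the square root of F. Normalised CPM are counts per 1000000 counts in tested genes, scaled by the TMM factors. The interaction is SETBP1+NRAS minus SETBP1 minus NRAS plus empty. Levels per kilobase used the longest principal transcript of each gene in GENCODE vM21 (the longest in the basic set where none is marked). Ratios used counts plus 0.5 on the log2 scale for the exact permutation tests (SciPy 1.17.1). The edgeR fit was checked on simulated counts with known changes. No 2 libraries of a group agreed within sampling noise (chi-square per degree of freedom 2.75 to 41).

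Named members were the 5 inducible genes, Psmb5, Psmb6 and Psmb7, up to 5 further members past the threshold with the largest change in each comparison, and up to 3 genes of each pathway list per comparison. Psma5, Psmd4, Psmd1, Psmg1, Psmd5, Psme3, Psme4, Psmf1, Tap1 and some values of named genes in further comparisons were added after their values were seen. The members, lists and tests were chosen with earlier results of these data known. Alternatives were DESeq2 1.42.0, limma-voom 3.58.1 with and without sample quality weights, other scalings, no filter, only the groups compared, a replicate block and each library left out.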

Additional observations from a re-analysis of the deposited data

How the results depend on the processing

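Of the 36 gene and comparison pairs past the threshold, 0 reversed in 756 values under the alternatives and 53 values no longer passed; of 32 pairs not past it, 47 of 664 values passed. The cause of these changes was not tested. The 15 constitutive calls in SETBP1 against empty became 0 with only the groups compared and 6 with a replicate block (0 to 22 with 1 library left out), and the 4 inducible calls became 1 with only the groups compared (1 to 5). Over all genes 14.9% were called with the settings above, 1.03% with only the groups compared and 10.7% with a replicate block. With 1 library left out the share ran from 3.5% to 28.7%. Replicate numbers did not pair libraries: same-number correlations of deviations ran from -0.127 to 0.124, others from -0.141 to 0.160, and 3 of 12 libraries were closer to their own number. In NRAS against empty, inducible calls went from 1 to 2 with quality weights, library size scaling or only the groups compared (1 to 2 with 1 library left out), and constitutive calls ran from 19 to 28. The share of all genes called there went from 32.5% to 50.8%, 33.1% and 49.1% in that order. With 1 library left out it ran from 24.1% to 47%. In SETBP1+NRAS against empty, inducible calls went from 1 to 4 with quality weights, library size scaling or only the groups compared. They went to 3 with upper-quartile scaling (1 to 4 with 1 library left out), and constitutive calls ran from 20 to 31. The share of all genes called there went from 40.6% to 57%, 41.5%, 56.5% and 40.5% in that order. With 1 library left out it ran from 32.8% to 53.7%. Library size scaling moved the median of all genes to -0.10 with NRAS and -0.13 with both inserts. In SETBP1+NRAS against NRAS, constitutive calls went from 0 to 1 with quality weights and 2 with only the groups compared (0 to 1). The share of all genes went from 1.91% to 9.44% and 8.37%. In SETBP1+NRAS against SETBP1 constitutive calls went from 11 to 6 with only the groups compared (8 to 15). The share of all genes went from 42.4% to 28.9%. Interaction calls went from 0 to 2 constitutive and 5 inducible with quality weights, and to 1 inducible with DESeq2 (0 to 3 inducible, the 3 without SETBP1 replicate 1). Over all genes the share went from 0.0455% to 3.19%, 0.846% and 0.684% in that order. The SETBP1 effect on Psmb10 to Psmb7 (0.23 to 0.29 with 1 library left out) had an adjusted p of 0.06 without NRAS replicate 3 and, at 0.24, without SETBP1+NRAS replicate 3. The other ratio effects kept their side of the threshold in all settings run. Values that changed sign had not passed in either fit: Psmb5 in SETBP1+NRAS against NRAS with DESeq2 (0.0011), limma-voom (0.0054) and DESeq2-style size factors (0.0011), Psmb6 in SETBP1+NRAS against SETBP1 with quality weights (0.0697), and some with 1 library left out. Those ranges were -0.12 to 0.015 for Psme1 with NRAS, -0.0779 to 0.0085 for Psmb10 with both inserts, -0.11 to 0.0089 for Psmb8 and -0.087 to 0.053 for Psmb5 in SETBP1+NRAS against NRAS, and -0.20 to 0.14 for Psmb6 in SETBP1+NRAS against SETBP1. The interaction needs all 4 groups and was not run on fewer. Low counts limit Psmb11, which was not tested, and give Psma8 and Psme2b standard errors of 0.32 and 0.28 in SETBP1+NRAS against SETBP1, against 0.10 for Psmb9.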
